A study of Caenorhabditis elegans with 2 samples.

Results

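The genes described here are Caenorhabditis elegans genes named for muscle structure, most of which encode contractile or anchoring proteins of muscle, and they were read for peaks of the tagged protein ALY-2. They are 40 of 46890 annotated nuclear genes, or 40 of 19973 protein-coding genes. The members were chosen by name from the Ensembl annotation: unc-15, unc-22, unc-27, unc-54, unc-60, unc-87, unc-89, lev-11, mup-2 and dim-1, and each gene named myo, mlc, tnt, tni, act or pat with a number. The rule goes by name, so it also takes in the intestinal actin gene act-5, the epidermal attachment gene pat-12 and the zinc finger gene pat-9. A peak belonged to a gene when it overlapped, by at least 1 bp, the gene body, the 1000 bp upstream of it or the 500 bp downstream of it, together called the window.

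Tagged ALY-2 was mapped by chromatin immunoprecipitation and sequencing (ChIP-seq) in strain OP217, whose genotype is unc-119(ed3) III; ddIs172, and which carries ALY-2 fused at its C-terminus to a GFP-FLAG tag. There was 1 group, of whole L4 larvae of mixed sex, with 2 biological replicates, and no other condition was compared. The animals are 1 transgenic line, the promoter of the transgene is not stated in the labels, and all cell types of the larva were pooled. A peak therefore cannot be assigned to muscle cells or to any other cells. The values used were ce11 peak lists, which hold no read counts, and the depth of each replicate is therefore unknown. The optimal list, past the authors' threshold of reproducibility, held 193 peaks with signal from 32.6 to 97.5. It was exactly the strongest 193 of the combined list, which was drawn from the pooled alignments and held 3341 peaks from 16.6 to 97.5. The replicate 1 list held 17453 peaks from 7.10 to 41.3, and the replicate 2 list held 29384 from 3.16 to 78.2. The combined and replicate lists are permissive and include background by design, so shares are read against those of all protein-coding genes.

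Muscle contracts when myosin heads on thick filaments pull on actin thin filaments. Troponin and tropomyosin on the thin filament gate this step by calcium, and integrin complexes tie the filaments to the cell membrane and the cuticle beyond it. ALY-2 is a worm relative of the Aly/REF proteins, which couple mRNA to nuclear export, and muscle structural genes are among the strongly transcribed genes of a larva.

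The gene unc-22 encodes twitchin, a giant kinase of the thick filament. The sequences below lie under the summits of its 3 strongest combined peaks and of the combined peaks at 3 further members. Each is 101 bases of the gene's own strand, from the RefSeq sequence of WBcel235, the assembly that ce11 also names, with the 21 bases centred on the summit in capitals. The unc-22 and act-5 sequences are from coding exons, and those of act-2 and pat-4 are from past the gene's end.
unc-22, chrIV:11977393-11977493, minus strand: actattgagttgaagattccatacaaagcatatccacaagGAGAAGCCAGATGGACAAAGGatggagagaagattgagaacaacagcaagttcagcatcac
unc-22, chrIV:11982884-11982984, minus strand: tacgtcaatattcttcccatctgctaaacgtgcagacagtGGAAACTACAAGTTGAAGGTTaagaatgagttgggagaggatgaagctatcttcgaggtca
unc-22, chrIV:11976253-11976353, minus strand: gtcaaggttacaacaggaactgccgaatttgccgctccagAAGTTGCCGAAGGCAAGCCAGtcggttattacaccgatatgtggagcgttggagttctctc
act-5, chrIII:13604791-13604891, minus strand: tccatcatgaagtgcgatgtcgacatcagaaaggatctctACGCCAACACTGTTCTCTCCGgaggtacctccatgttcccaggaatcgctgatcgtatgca
act-2, chrV:11076550-11076650, minus strand: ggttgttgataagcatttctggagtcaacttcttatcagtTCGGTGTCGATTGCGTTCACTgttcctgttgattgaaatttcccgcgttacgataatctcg
pat-4, chrIII:89281-89381, minus strand: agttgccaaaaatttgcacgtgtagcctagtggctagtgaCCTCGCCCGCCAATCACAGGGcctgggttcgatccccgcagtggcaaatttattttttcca

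The GC content of these 101 bases was 41.6%, 42.6% and 51.5% at the unc-22 summits in the order shown, 50.5% at act-5, 42.6% at act-2 and 51.5% at pat-4. Taken from 100 bp before to 100 bp after the summit, GC content averaged 43.7% ± 7.19 at the 22 combined peaks of muscle genes (SD over peaks), and 39.9% ± 6.91 at the 3047 combined peaks of protein-coding genes. Coding sequence of the muscle genes is itself 47.1% GC and their introns 33.2%, and most of their combined summits lay in coding exons. The pat-4 sequence holds the letters of the B box, the internal promoter element of tRNA genes. Searched as GGTTCGA, any 2 bases and then CC on both strands of whole peaks, the letters were in 1 of the 22 combined peaks of muscle genes (4.55%) and in 113 of all 3341 combined peaks (3.38%). The nearest annotated tRNA gene was 445867 bp away.

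Muscle structure genes held peaks at a share above that of protein-coding genes in each list, and the exact intervals of the shares are wide. In the optimal list, 3 of the 40 had a peak (7.50%, exact 95% interval 1.57 to 20.4), against 1.27% of protein-coding genes and 0.795% of all nuclear genes. Among the strongest 193 peaks of replicate 1 alone the count was 2 members, against 1.14% of protein-coding genes. Among the strongest 193 of replicate 2 alone it was 1 member, against 1.32%. In the combined list 9 had one (22.5%, 10.8 to 38.5), against 16.1% of protein-coding and 9.93% of nuclear genes. Replicate 1 had peaks at 28 members (70.0%, 53.5 to 83.4), against 55.6% and 39.8%. Replicate 2 had peaks at 35 members (87.5%, 73.2 to 95.8), against 69.0% and 51.0%. A replicate 1 peak that met a replicate 2 peak lay in the window of 16 members (40%, 24.9 to 56.7), against 27.2% of protein-coding and 16.9% of nuclear genes. The shares of protein-coding genes in the combined list, in replicate 1 and for sites in both replicates lie within the intervals of the muscle genes. The interval covers counting error over genes only, and no test was run, because there is 1 group and the members were named with results of these data known.

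**Figure D1:**
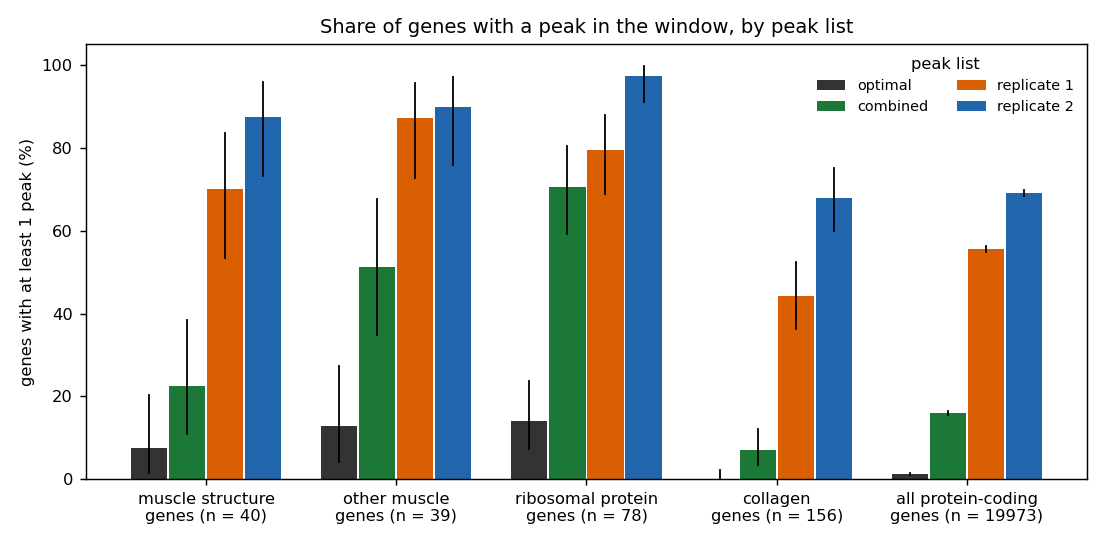
Share of genes with at least 1 peak in the window, in percent, for muscle structure genes, other muscle genes, ribosomal protein genes, collagen genes and all protein-coding genes, with exact 95% intervals as lines and 1 bar for each peak list. Muscle structure genes reach 22.5% in the combined list, ribosomal protein genes 70.5%, collagen genes 7.05% and all protein-coding genes 16.1%.

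These genes are long, and a longer window meets more peaks. Their windows ran from 2.295 to 56.684 kb with a median of 5.12 kb, against 3.53 kb over protein-coding genes. Counted per kb of window, muscle genes held 4 optimal peaks, or 0.0119 per kb, against 0.00299 per kb over protein-coding genes. Their 22 combined peaks made 0.0654 per kb, against 0.0461. Their 75 replicate 1 peaks made 0.223 per kb, against 0.208, and their 164 replicate 2 peaks made 0.488 per kb, against 0.364. The median over genes was 0.181 per kb for muscle genes and 0.160 for protein-coding genes in replicate 1, and 0.395 and 0.304 in replicate 2.

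A few genes carried most of that excess. The 3 genes unc-22, unc-54 and unc-89 held 16 of the 22 combined peaks (72.7%) on 31.4% of the summed window length. Over the other 37 genes the combined list had 6 peaks, or 0.0260 per kb, which is below the 0.0461 of protein-coding genes. Replicate 1 had 0.173 per kb over those 37 genes, also below the 0.208 of protein-coding genes, whereas replicate 2 had 0.412 per kb, above 0.364. These 3 genes were singled out after their values were seen.

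By length of window, the share of muscle genes with a combined peak was 2 of 8 (25.0%) under 3 kb, against 695 of 6917 protein-coding genes of that length. It was 1 of 15 (6.67%) from 3 to under 6 kb, against 14.7%, and 4 of 13 (30.8%) from 6 to under 12 kb, against 26.5%. At 12 kb or more it was 2 of 4 (50%), against 43.6%. Within a class the muscle genes thus lay above protein-coding genes in 3 classes and below them in the class with the most members.

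**Figure D2:**
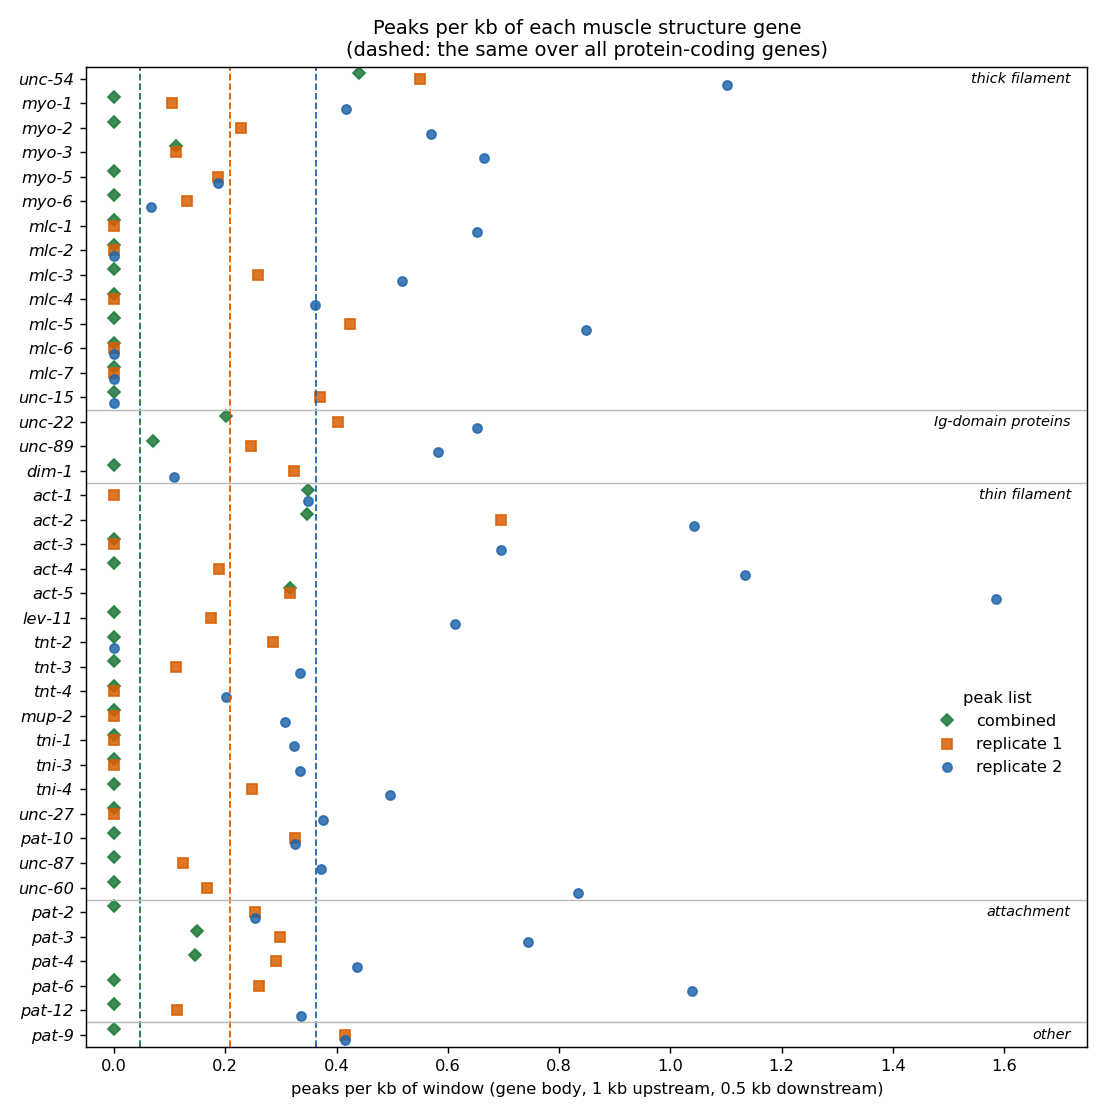
Peaks per kb of window for each of the 40 muscle structure genes, grouped by role, in the combined, replicate 1 and replicate 2 lists. Dashed lines give the same over all protein-coding genes (0.0461, 0.208 and 0.364 per kb), and unc-54 lies to the right of its line in each of the 3 lists while mlc-2, mlc-6 and mlc-7 lie at 0 in each.

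The thick filament group had 14 genes, of which 2 had a combined peak (14.3%, against 16.1% of protein-coding genes), 9 a replicate 1 peak (64.3%, against 55.6%) and 10 a replicate 2 peak (71.4%, against 69.0%). These shares are near those of protein-coding genes. Of its 5 combined peaks, 4 were at unc-54, which encodes the main myosin heavy chain of body wall muscle (WBGene00006789, I 14855901 to 14863482, minus strand). This gene had 4 peaks in the combined list, 5 in replicate 1 and 10 in replicate 2, and 2 of the combined peaks were also optimal. Its strongest peak (I 14855633 to 14856002) had signal 51.6 and rank 23 in the optimal list. That summit lay 83 bp past the end of unc-54, and the peak also overlapped aex-5, the next gene. A replicate 2 peak of signal 41.6 and rank 14 lay under it, whereas no replicate 1 peak overlapped it.

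The second optimal peak of unc-54 (I 14856658 to 14857027) had signal 45.8 and rank 37, with its summit in a coding exon of 216 bp, 87.6% of the way along the gene. It met a replicate 1 peak of signal 18.2 (rank 172) and a replicate 2 peak of signal 35.6 (rank 23). The other combined peaks of the gene had signals of 21.5 and 20.0 and lay in its coding exon of 3666 bp, at 77.6% and 84.9%. With 0.551 peaks per kb in replicate 1 and 1.10 in replicate 2, unc-54 was among the 5 densest members in both.

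The other body wall heavy chain, myo-3, had 1 combined peak, of signal 16.6. It ranked 3330 of 3341, at the floor of the list, and lay in a coding exon 72.6% along the gene. Replicate 1 had 1 peak there, of signal 11.1 (rank 3393), and replicate 2 had 6, the highest of signal 12.7 (rank 1047). The summits of myo-3 that fell inside the gene, 1 in replicate 1 and 4 in replicate 2, lay between 71.7% and 90.4% of the way along it. The pharyngeal heavy chains myo-1 and myo-2 had no combined peak. In replicate 1 they had 1 and 2 peaks with top signals of 9.35 and 11, and in replicate 2 they had 4 and 5, with top signals of 10.2 and 6.65.

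Paramyosin, the core protein of the thick filament, is encoded by unc-15, which had 3 replicate 1 peaks and no replicate 2 peak. The replicate 1 signals were 14.1 (rank 889), 13.2 (rank 1340) and 8.04 (rank 12245), so the gene's peaks were a feature of 1 replicate. The long myosin gene myo-6 had 2 replicate 1 peaks and 1 replicate 2 peak, with top signals of 11.6 and 6.55, and none of them met. The gene myo-5, also of the myosin family, had 2 in each replicate, with top signals of 13.7 and 5.74, and again none met.

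Of the 7 myosin light chain genes, none had a combined peak, and mlc-2, mlc-6 and mlc-7 had no peak in any list. Their windows are 2.295, 2.528 and 5.918 kb long. The densest of the light chains was mlc-5, with 0.424 peaks per kb in replicate 1, which is 1 peak of signal 7.20 near the floor of that list (rank 16836), 838 bp upstream of the gene. Replicate 2 had 2 peaks at mlc-5, of signal 7.95 and 6.44, at 12 bp upstream and 120 bp downstream.

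The group of immunoglobulin-domain proteins had 3 genes and the most combined peaks of any group, 12 on 105.75 kb, or 0.113 per kb. Of these, 8 were at unc-22 (WBGene00006759, IV 11972697 to 12011007, minus strand), more than at any other member. All 8 summits lay in coding exons, between 61.3% and 95% of the way along the gene, and 5 of them were in a single exon of 9614 bp. The strongest (IV 11977258 to 11977627) had signal 44.5 and rank 42 in the optimal list, at 87.6%, and is the first sequence shown above. The next had signals of 31.9 (rank 205) and 29.3 (rank 301), and the other 5 ranged from 17.0 to 19.

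Both replicates placed the top of unc-22 in the same exon. The strongest replicate 1 peak, of signal 27.5 and rank 16 in that list, had its summit at 87.6% of the gene. In replicate 2 a peak of signal 19.3 (rank 265) had its summit at 87.9%, next to one of signal 20.4 (rank 209) at 90.6%. The gene had 16 replicate 1 peaks and 26 replicate 2 peaks, and 11 of the 16 met a replicate 2 peak. The 5 replicate 1 peaks that met none lay upstream or at most 52.9% of the way along the gene. With the gene body divided into 3 equal parts from start to end, the first, middle and last part held 0, 1 and 7 summits of the combined list, 2, 3 and 10 of replicate 1, and 2, 7 and 17 of replicate 2.

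Obscurin, a giant protein of the M-line, is encoded by unc-89, the longest member (WBGene00006820, I 4035702 to 4090885, plus strand). It had 4 combined peaks, none of them optimal, with signals of 25.5, 22, 20.6 and 19.3. The summits lay at 61.9%, 54.7%, 79.0% and 65.4% of the gene, of which the first pair were in a coding exon of 6065 bp and the others in introns. Replicate 1 had 14 peaks with a top signal of 13.4 (rank 1245) at 61.6%, and replicate 2 had 33 with a top signal of 16.1 (rank 497) at 61.9%. Here the middle of the gene was the densest. In the first, middle and last part, unc-89 had 0, 3 and 1 combined summits, 0, 7 and 5 replicate 1 summits, and 6, 17 and 9 replicate 2 summits.

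In both giant genes the part with most summits in each of these 3 lists was also the part with most coding sequence. Coding exons fill 17.0%, 66.6% and 88.8% of the first, middle and last part of unc-22, and 20.7%, 77.9% and 34.0% of those of unc-89. They fill 52.4%, 97.9% and 82.7% of the 3 parts of unc-54, where the combined summits inside the gene were 0, 0 and 3. Replicate 1 had 0, 0 and 4 summits in the parts of unc-54, and replicate 2 had 2, 4 and 3. The combined and replicate 1 summits of unc-54 were thus in its last part, and replicate 2 had the most in the middle part, which has the most coding sequence. The part of coding content in these positions was not tested. The remaining gene of the group, dim-1, had no combined peak, 3 replicate 1 peaks with a top signal of 11.9 and 1 replicate 2 peak of signal 3.25.

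**Figure D3:**
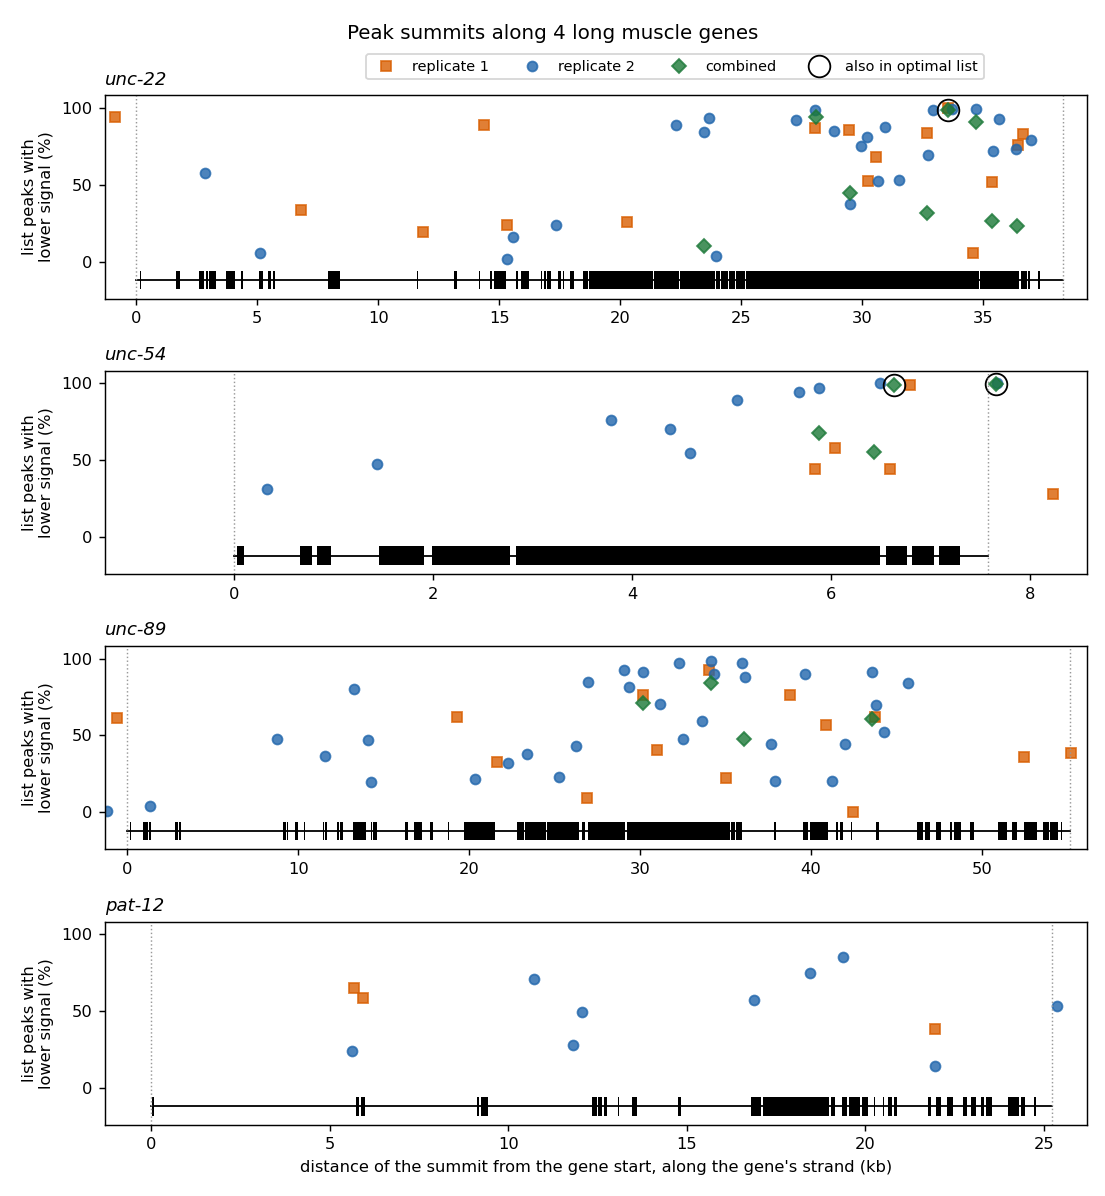
Position of peak summits along unc-22, unc-54, unc-89 and pat-12, in kb from the gene start along the gene's strand, against the percentage of the same list's peaks with a lower signal. Black boxes are coding exons and dotted lines the ends of the gene. The ringed optimal peaks lie at 87.6% of unc-22, and at 87.6% and 83 bp past the end of unc-54.

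The thin filament group had 17 genes. A combined peak lay at 3 of them, all actin genes (17.6%, against 16.1% of protein-coding genes). A replicate 1 peak lay at 10 (58.8%, against 55.6%) and a replicate 2 peak at 16 (94.1%, against 69.0%). The actin gene act-2 (WBGene00000064, V 11076777 to 11078154, minus strand) had 1 optimal peak, of signal 34.5 and rank 151. Its summit lay 177 bp past the end of the gene, and the peak also overlapped the gene T04C12.14. The replicate 1 peak at this place had signal 16.3 (rank 356) and the replicate 2 peak 18.9 (rank 284). Replicate 2 had a further peak of signal 14.4 (rank 715), 100 bp upstream of act-2. With 0.695 peaks per kb, which is 2 peaks, act-2 was the densest member in replicate 1.

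Its neighbour act-1 had 1 combined peak of signal 20.6 (rank 1290), 203 bp past its end, which also overlapped T04C12.29. Replicate 2 had a peak of signal 9.28 there (rank 2952) and replicate 1 had none. Across the 3 adjacent actin genes the values were unlike: act-3 had no combined peak, no replicate 1 peak and 3 weak replicate 2 peaks, the highest of signal 5.38 (rank 12409). The intestinal actin gene act-5, which is not a muscle gene by its known expression, had 1 combined peak of signal 18.9 (rank 1874), in a coding exon at 74.1%. It met a replicate 1 peak of signal 9.81 and a replicate 2 peak of signal 8.24, and with 5 replicate 2 peaks the gene had the highest density of any member there, 1.58 per kb. The X-linked actin gene act-4 had 1 replicate 1 peak of signal 7.88 and 6 replicate 2 peaks with a top signal of 7.19, and no combined peak.

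Reads from the actin genes act-1, act-2 and act-3 are hard to place. Of all 31-base words in act-1, 87.9% occur elsewhere in the genome, as do 42.0% of those in act-3 and 38.9% of those in act-2. The coding sequences of act-1 and act-3 are identical over 1128 bases, and those of act-1 and act-2 are 96.2% identical. Among the light chains the share was 47.7% at mlc-7 and 20.0% at mlc-2, which had no peak in any list, and mlc-1 and mlc-2 are 96.7% identical in coding sequence. It was 0.170% at unc-22, 0.172% at unc-89 and 0.940% at unc-54. Whether the authors kept reads that fit several places is not stated in the sources used here. Peaks or their absence inside the act-1 to act-3 genes and myo-6, and at mlc-2 and mlc-7, are therefore uncertain.

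The troponin genes had no combined peak, and their replicate shares lay on either side of those of protein-coding genes. No troponin T gene (tnt-2, tnt-3, tnt-4, mup-2), troponin I gene (tni-1, tni-3, tni-4, unc-27) or the troponin C gene pat-10 had a combined peak, which is 0 of 9, against 16.1%. With only 9 genes and no interval taken, this 0 cannot be read as a difference. A replicate 1 peak lay at 4 of the 9 (44.4%, against 55.6%) and a replicate 2 peak at 8 (88.9%, against 69.0%). In replicate 1, tnt-2, tnt-3, tni-4 and pat-10 had 1 peak each, with signals of 11.8, 9.37, 7.71 and 9.13. In replicate 2 each of these 9 genes had 1 to 3 peaks except tnt-2, which had none, and the highest signal was 5.61, at tni-4. Tropomyosin, encoded by lev-11, had no combined peak on 11.426 kb. It had 2 replicate 1 peaks with a top signal of 9.53 and 7 replicate 2 peaks with a top signal of 8.70, or 0.613 per kb against 0.364, and both replicate 1 peaks met one of replicate 2. The calponin-like gene unc-87 had 1 and 3 peaks in replicates 1 and 2, and the actin-depolymerizing factor gene unc-60 had 1 and 5.

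The attachment group had 5 genes. Each had a peak in replicate 1 and in replicate 2, against 55.6% and 69.0% of protein-coding genes. Of those with windows of 6 to under 12 kb, 78.5% and 89.4% had one. A site found in both lay at 4 of the 5, against 27.2% of protein-coding genes and 44.3% of that length class. A combined peak lay at 2 of the 5, against 16.1% and 26.5%. The windows of pat-6 (3.847 kb) and pat-12 (26.72 kb) lie outside that class. Integrin-linked kinase, encoded by pat-4 (WBGene00003931, III 89453 to 94809, minus strand), had a combined peak of signal 27.1 (rank 416), 122 bp past its end, which also overlapped mrpl-40, a mitochondrial ribosomal protein gene. This was a strong site in both replicates, with signal 15.0 (rank 598) in replicate 1 and 19.1 (rank 277) in replicate 2. The integrin beta subunit gene pat-3 had a combined peak of signal 20.9 (rank 1232), 13 bp past its end, with 14.4 (rank 801) in replicate 1 and 9.63 (rank 2632) in replicate 2. The alpha subunit gene pat-2 had 2 peaks in each replicate and none that met.

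The actopaxin gene pat-6, whose product binds integrin-linked kinase, was among the densest in replicate 2, with 1.04 peaks per kb or 4 peaks, the highest of signal 8.96. Its single replicate 1 peak had signal 7.86. The gene pat-12, whose product sits in the epidermal attachment structures, is among the 5 longest and had no combined peak on 26.72 kb, 3 replicate 1 peaks and 9 replicate 2 peaks. All 3 replicate 1 peaks met one of replicate 2, with signals of 9.73, 9.33 and 8.36 in replicate 1. The zinc finger gene pat-9 had 2 peaks in each replicate and a top signal of 7.88 in replicate 1 and 3.77 in replicate 2.

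Combined summits inside muscle genes lay mostly in the last part of the gene, as they also did, at a lower share, over protein-coding genes. In the combined list, 17 summits fell inside the gene body, of which 0 were in the first part, 4 in the middle and 13 in the last part (76.5%, exact 95% interval 50.1 to 93.2). Over protein-coding genes the share in the last part was 48.3%, and over those with windows of 12 kb or more it was 52.8%. In replicate 1 the parts held 11, 18 and 29 summits, so 50% lay in the last part (36.6 to 63.4), against 37.3% over protein-coding genes and 39.4% over the long ones. In replicate 2 they held 22, 49 and 54, or 43.2% in the last part (34.4 to 52.4), against 38.9% and 42.0%. The intervals of both replicates hold the shares of protein-coding genes, and the combined interval holds that of the long genes. These intervals count each summit as independent, although many summits share a gene. Of the 17 combined summits, 8 were in unc-22, 4 in unc-89 and 3 in unc-54. The intervals are therefore too narrow, and a share just outside one cannot be read as a difference. Both optimal summits inside muscle genes were in the last part, as were 71.7% of optimal summits over protein-coding genes and 77.5% over the long ones.

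Without unc-22, unc-54 and unc-89 the share in the last part was 37% in replicate 1 (10 of 27 summits) and 43.1% in replicate 2 (25 of 58). The combined list then had 2 summits inside genes, both in the last part. In replicate 1 the share over the other 37 was thus close to the 37.3% of protein-coding genes. Leaving out unc-22 alone lowered the replicate 1 share from 50% to 44.2%, and leaving out unc-54 alone lowered it to 46.3%. Leaving out unc-89 alone raised it to 52.2%, so unc-89 did not add to the late position. These genes were set apart after their values were seen.

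Combined summits also lay just past the gene's end, and none lay in the 1000 bp before its start. The 500 bp downstream held 5 summits, or 0.250 per kb (exact 95% interval 0.0812 to 0.583), against 0.0725 per kb over protein-coding genes and 0.154 over those with windows of 12 kb or more. The upstream 1000 bp held 0, which allows up to 0.0922 per kb by the same interval, against 0.0509 and 0.0518 per kb, so a difference upstream was not detectable. The 5 genes were unc-54, act-1, act-2, pat-3 and pat-4, and at 4 of them the peak also overlapped another gene. By density replicate 1 had no such excess downstream: it had 4 downstream summits (0.2 per kb, against 0.220) and 10 upstream summits (0.250 per kb, against 0.192). Its list did hold peaks at the downstream sites of act-2 (rank 356), pat-4 (rank 598) and pat-3 (rank 801), and none at those of unc-54 and act-1. Replicate 2 had 18 downstream summits (0.900 per kb, against 0.407) and 16 upstream (0.400 per kb, against 0.361).

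**Figure D4:**
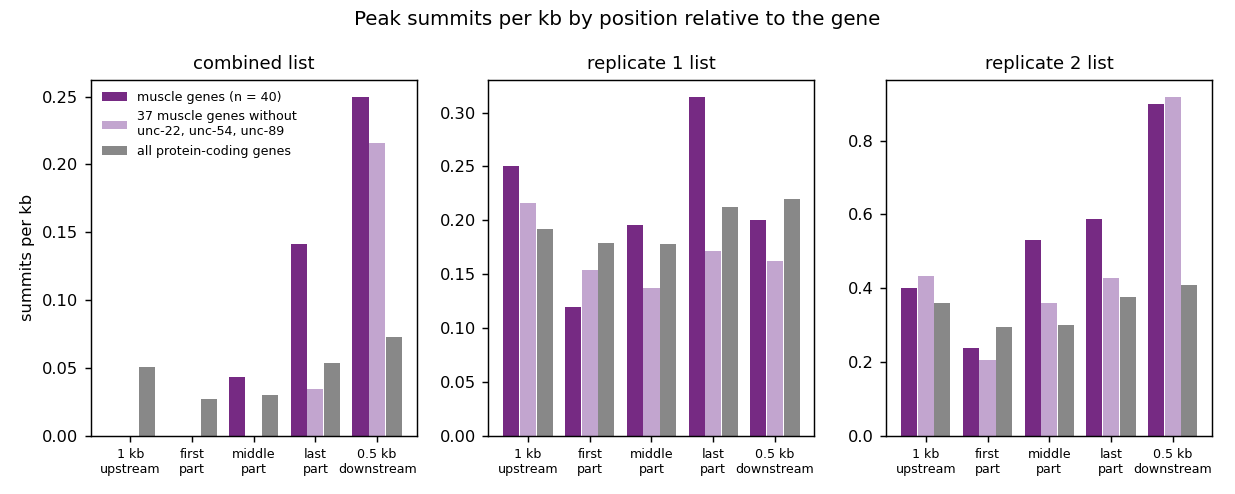
Peak summits per kb in the 1 kb upstream, the 3 equal parts of the gene body and the 0.5 kb downstream, for all muscle structure genes, for the 37 without unc-22, unc-54 and unc-89, and for all protein-coding genes, in 3 peak lists with separate vertical scales. In the combined list the muscle genes reach 0.141 per kb in the last part and 0.250 per kb downstream, against 0.0534 and 0.0725 per kb for protein-coding genes.

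Within the gene body, 15 of the 17 combined summits were in coding exons (88.2%), whereas coding sequence makes up 44.6% of these gene bodies. Over protein-coding genes the values were 47.3% of summits and 38.3% of sequence, and over those with windows of 12 kb or more 42.5% and 22.4%. In replicate 1 the share was 33 of 58 (56.9%), against 44.3% over protein-coding genes, and in replicate 2 it was 78 of 125 (62.4%), against 44.4%. Without the 3 genes named above it was 48.1% in replicate 1 and 53.4% in replicate 2, on gene bodies that are 40.6% coding. In the combined list unc-22 held 8 of the 15 summits in coding exons, unc-54 held 3 and unc-89 held 2. Without these genes only 2 combined summits were left inside gene bodies, both in coding exons.

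The replicates shared part of their sites at these genes. Of the 75 replicate 1 peaks, 38 met a replicate 2 peak (50.7%), against 41.2% over protein-coding genes. Without unc-22, unc-54 and unc-89 it was 17 of 40 (42.5%), close to protein-coding genes. Of the 22 combined peaks, 18 met a replicate 1 peak and all 22 a replicate 2 peak. The combined list was made from the same alignments, so that overlap is not independent. The combined peaks without a replicate 1 peak were the downstream peak of unc-54, the weakest of unc-22, the weakest of unc-89 and that of act-1.

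On the X chromosome, which carries 12 of the members, no muscle gene had a combined peak, against 12.2% of protein-coding genes on X. A count of 0 of 12 allows a share of up to 26.5% (exact 95% interval). The 12 include tnt-2, tnt-3, mup-2, tni-1 and unc-27, so this count and that of the troponin genes share members. On the autosomes 9 of 28 members had one (32.1%), against 16.7%. Replicate 1 had a peak at 6 of the 12 X-linked members (50%, against 54.9%) and replicate 2 at 9 (75.0%, against 69.2%).

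Further muscle genes, taken from a list of 41 names of which 39 were matched, had higher shares than the 40 members in each list, on longer windows. The list holds dense-body, M-line, calcium-handling, basement-membrane and chaperone genes. Of the 39, 5 had an optimal peak (12.8%, against 1.27% of protein-coding genes and 3.75% of those with windows of 12 kb or more) and 20 a combined peak (51.3%, against 16.1% and 43.6%). A replicate 1 peak lay at 34 (87.2%, against 55.6% and 95.3%) and a replicate 2 peak at 35 (89.7%, against 69.0% and 97.9%). Most of the 39 windows were shorter than 12 kb, such as 2.26 kb at cpn-3 and 3.333 kb at unc-97. The class of 12 kb or more therefore does not match these genes in length. A comparison with genes of like length was not made. Their windows sum to 598.107 kb, against 336.407 kb for the 40 members. Per kb the 39 genes had 0.0117 peaks in the optimal list, about the 0.0119 of the 40 members. They had 0.0986 per kb in the combined list, 0.283 in replicate 1 and 0.470 in replicate 2, the last below the 0.488 of the 40 members. A large part of these peaks lay at few genes. The gene vab-10 held 14 of the 59 combined, 28 of the 169 replicate 1 and 65 of the 281 replicate 2 peaks. The gene hsp-90 held 5, 4 and 7 of them. Each also held 2 of the 7 optimal peaks. Densities without vab-10 and hsp-90 were not taken. The optimal peaks were at hsp-90, a chaperone (signal 97.5, rank 1, 13 bp past its end, and 34.6), at vab-10, a spectraplakin (68.6 and 35.0, both in introns), at tln-1, which encodes talin (38.7), at unc-45, a myosin chaperone (36.4, 239 bp past its end), and at ketn-1, a kettin gene (32.9). The titin gene ttn-1, with a window of 83.224 kb, had 6 combined peaks with a top signal of 21.7.

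Gene groups of other kinds, chosen by name, had quite different shares. Their transcription in these larvae was not measured. Of 78 cytoplasmic ribosomal protein genes 55 had a combined peak (70.5%), at 0.441 per kb, and 11 an optimal peak (14.1%), against 16.1% and 1.27% of protein-coding genes. Of 156 collagen genes 11 had a combined peak (7.05%), at 0.0256 per kb, and 0 an optimal peak, which allows up to 2.34% (exact 95% interval). Muscle structure genes lay between them, at 22.5% and 0.0654 per kb. That density rests on unc-22, unc-54 and unc-89: over the other 37 members it was 0.0260 per kb, close to that of collagen genes. The shares are not matched for length. Windows sum to 336.407 kb over the 40 members, 178.94 kb over the 78 ribosomal protein genes and 468.56 kb over the 156 collagen genes.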

How the data were processed

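ChIP-seq against ALY-2 was carried out on 2 replicates of whole L4 larvae. The values are the authors' ce11 peak lists, derived with a control alignment, per the file headers. The deposited signal value of a peak has no stated scale and was used to describe and rank peaks within a list. The deposited −log10 q-values tie at the top of each list and were not used for ranking. No source used here names the aligner, the peak caller or the threshold of the optimal list. The ce10 lists were not used. Depth is unknown, and nothing says whether the replicates came from separate cultures.

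Genes were taken from Ensembl release 115 (WBcel235). No peak lay past a chromosome end, and of the 40 members all were in the RefSeq annotation, 35 with the same coordinates. Position was that of the summit. Neighbouring genes can share a peak and are then not independent. Intervals of shares are Clopper-Pearson at 95%, those of summits per kb are exact Poisson at 95%, and both cover counting error only. Intervals over summits count each summit as independent. With 1 group, no test was run. Genes named in full were those with an optimal or combined peak, the 5 densest in each replicate, the 5 longest and those with no peak. Other members are named with their group, and unc-22, unc-54 and unc-89 were set apart after their values were seen. The members and lists were chosen with earlier results of these data known. Alternatives were other windows, summit overlap, stronger peaks, equal list sizes, each replicate alone, midpoints, equal weights, and peaks over no other protein-coding gene body. The counting was tested on simulated data. Software was Python 3.11.15 with scipy 1.17.1, numpy 2.4.6 and, for figures, matplotlib 3.10.9.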

Additional observations from a re-analysis of the deposited data

How the results depend on the processing

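Of 85 alternatives, 75 left a count of members within 1.5 times of its value, or a density or share within its exact 95% interval, and 10 did not. This rule is loose where counts are small and intervals wide. A fall from 3 to 2 members in the optimal list passed it. The 75 therefore do not show that the results are stable. With equal list sizes, 12 members had a peak among the strongest 3341 of replicate 1 and 11 among those of replicate 2, against 16.2% and 15.7% of protein-coding genes, and 6 had a site in both. Peaks per kb were then 0.0595 and 0.0892. With peaks at or above the median signal they were 0.137 in replicate 1 and 0.276 in replicate 2, and with overlapping peaks merged 0.401 in replicate 2. With summits within 100 bp, 9 members had a site in both replicates. For the 6 and the 9 members with a site in both, the share over protein-coding genes was not taken. Each replicate alone gave 1 to 2 members in place of 3 in the optimal list, against 1.14% to 1.32% of protein-coding genes. Replicate 2 alone gave the 1. For the combined list each replicate alone gave 11 to 12 members in place of 9, and 0.0595 to 0.0892 peaks per kb. Leaving out unc-22, unc-54 or unc-89 in turn, and merging overlapping peaks, were chosen after seeing the data. Combined peaks per kb were 0.0472 without unc-22, 0.0550 without unc-54 and 0.0643 without unc-89. Over protein-coding genes the value was 0.0461, so without unc-22 alone the density was close to it. The share of combined summits in the last of 3 parts of the gene was 66.7% without unc-22, 71.4% without unc-54 and 92.3% without unc-89.

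No paired analysis was possible because the study has a single group of samples. The lists hold no counts, so what depth limits cannot be given. Signals are not comparable between lists, the permissive lists hold background, and a list with more peaks meets more genes. Several peaks overlap neighbouring genes, and with those over another protein-coding gene body left out 8 members kept a combined peak. The same share over protein-coding genes was not taken.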
